A study of Mus musculus with 5 samples.

Results

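Nephron progenitors are the cap mesenchyme cells that surround the tips of the branching ureteric bud and give rise to the epithelium of the nephron. SIX2, OSR1, SALL1 and EYA1 act in the gene network that keeps these cells undifferentiated, and the GDNF they secrete signals through RET and GFRA1 on the bud to drive its branching. In the mouse these cells are used up shortly after birth, so they are still present late in gestation. The 10 genes described here are Six2, Cited1, Eya1, Osr1, Meox1, Meox2, Crym, Sall1, Gdnf and Spock2. They were chosen by name as genes of this cell state, and all 10 were found among the 18044 genes of the deposited count table.

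The libraries came from wild-type C57BL/6 mouse embryos at E18.5, late in gestation. The pelvis-kidney junctions of all embryos were pooled and dispersed with collagenase, and cells were sorted by flow cytometry on an antibody against HCN3, a hyperpolarization-activated cation channel. Of the 5 libraries, 2 are labelled HCN3-positive, a group the labels call pacemaker cells of the urinary tract, and 3 are labelled HCN3-negative. All groups share strain, stage, dissection and antibody staining, and no treatment or mutation separates them. The labels do not tie replicates to separate pools or litters. P-values therefore cover only the variation among these 5 libraries, part of which may be technical.

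Reads in genes numbered from 24588864 to 39034478 per library, fewest in the library labelled HCN3-positive 1. The transcript of the sorted protein, Hcn3, had normalized counts of 0 (HCN3-positive 1), 44.5 (HCN3-positive 2), 103, 32.2 and 41.9 (HCN3-negative 1, 2 and 3). The lowest value thus carries a positive label and the highest a negative one, while HCN3-positive 2 lies above 2 of the 3 negative labels. The authors' own comparison in the deposited table divides the libraries otherwise than the labels do. Its fold sets the mean of HCN3-negative 1, HCN3-positive 2 and HCN3-negative 3 over that of HCN3-negative 2 and HCN3-positive 1, an identity that held in 18044 of 18044 genes. The former are called the second set and the latter the first set. Hcn3 was at 0 (HCN3-positive 1) and 32.2 (HCN3-negative 2) in the first set. In the second set it was at 44.5 (HCN3-positive 2), 103 (HCN3-negative 1) and 41.9 (HCN3-negative 3). Every library of the second set thus lay above both of the first in Hcn3, as for 26.1% of all genes tested. The deposited comparison is named as HCN3-negative against HCN3-positive, but neither its name nor its columns say which libraries stand on which side. Which division is right cannot be told from these files. Groups are named by their labels, and every direction by label rests on them.

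For 6 of the 10 genes RefSeq promoter windows could be matched by symbol (GRCm38.p6). The 250 bases before the start are shown for Six2, which defines the cell state, for Cited1, whose profile over the libraries lay nearest to that of Six2 among these genes, and for Gdnf, the ligand with the largest deposited fold of the 10. The most upstream of 3 Cited1 windows and of 2 Gdnf windows is shown. Capitals mark the TATA box letters TATAAA and the CCAAT box letters CCAAT, searched on both strands.
Six2, chr17:85688255-85688504, minus strand: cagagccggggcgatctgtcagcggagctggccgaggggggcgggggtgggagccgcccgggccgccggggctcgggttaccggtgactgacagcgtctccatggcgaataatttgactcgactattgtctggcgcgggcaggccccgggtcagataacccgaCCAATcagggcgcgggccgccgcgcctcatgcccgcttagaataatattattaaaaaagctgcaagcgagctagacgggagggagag
Cited1, chrX:102252182-102252431, minus strand: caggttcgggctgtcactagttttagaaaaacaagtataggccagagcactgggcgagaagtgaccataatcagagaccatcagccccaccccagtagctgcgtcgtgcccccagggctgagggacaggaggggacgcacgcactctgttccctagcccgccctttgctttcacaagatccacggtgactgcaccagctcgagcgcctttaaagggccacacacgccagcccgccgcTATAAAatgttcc
Gdnf, chr15:7809798-7810047, plus strand: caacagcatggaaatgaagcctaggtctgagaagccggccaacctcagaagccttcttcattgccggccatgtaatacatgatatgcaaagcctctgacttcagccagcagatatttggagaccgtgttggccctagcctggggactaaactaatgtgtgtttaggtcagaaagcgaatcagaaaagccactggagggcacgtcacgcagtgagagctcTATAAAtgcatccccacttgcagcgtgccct
The Gdnf window holds TATAAA beginning 31 bases before the start, and this Cited1 window holds it 13 bases before the start. The Six2 window has no TATAAA, holds CCAAT 87 bases before the start, and has 26 CpG dinucleotides against a median of 6 over 32851 windows. TATAAA stood on either strand in 12.4% of these windows and CCAAT in 33.8%. The core TGATAC, known from sites of SIX2-related proteins, was in none of the 11 windows of the 6 genes and in 4.64% of all windows. These matches are descriptions of letters in these windows.

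The comparison by label addresses which transcripts set the HCN3-positive cells apart. None of the 10 genes separated the labelled groups. In 9 of 10 the library labelled HCN3-positive 1 was the lowest of all 5, as it was for 32.1% of all genes tested. The other library labelled positive was the highest in 4 of 10 (16.2% of all genes tested) and lay above HCN3-negative 2 in all 10. Values below are normalized read counts, that is reads divided by the size factor of the library. Where a library had 0 reads, a floor of 3 reads is used. For HCN3-positive 1 this floor equals 4.23 normalized counts.

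Six2 (chromosome 17, 85684277 to 85688274, minus strand, GENCODE M21 on GRCm38), the homeobox factor that holds the progenitors in self-renewal, was at 45.1 in HCN3-positive 1 and at 711 in HCN3-positive 2. Libraries labelled HCN3-negative 1, 2 and 3 had 328, 263 and 815. Group means were 378 ± 471 (SD, n = 2) and 469 ± 302 (SD, n = 3), so one positive label was the lowest of the 5 and the other lay within the range of the negative labels. On the log2(normalized count + 1) scale, Six2 differed by -1.19 (SE 1.29) between the positive and negative labels, and the adjusted p from limma was 1.00. Cited1 (chromosome X, 102247381 to 102252181, minus strand), a transcriptional co-activator of the least committed progenitors, was at 50.7 and 403 against 224, 209 and 511. Its groups overlapped in the same way, with a difference of -0.999 (SE 1.04) on that scale.

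Eya1 (chromosome 1, 14168954 to 14310235, minus strand) encodes a phosphatase and co-activator that works with SIX2 and its relatives. It was without reads in HCN3-positive 1 and at 585 in HCN3-positive 2, against 244, 159 and 667 in the libraries labelled negative. The zero of one library and the high value of its replicate gave a log2 fold change of -3.62 with an SE of 2.73. Sall1 (chromosome 8, 89027235 to 89044162, minus strand), a zinc finger factor needed for bud outgrowth, was the most abundant of the 10. It was at 369 and 2531 against 1407, 784 and 1600.0, so the labelled positive libraries were both the lowest and the highest.

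Osr1 (chromosome 12, 9570116 to 9581500, plus strand), an early factor of the intermediate mesoderm, was the exception to the order of the libraries. Its 5 values were 109 and 590.5 (positive labels) and 644, 96.6 and 249 (negative labels), lowest in HCN3-negative 2. Its log2 fold change was 0.02 (SE 1.12), the only one of the 10 above 0. An annotated long non-coding RNA on the other strand overlaps Osr1, and nothing states that strand was kept, so the reads of both genes cannot be told apart.

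The homeobox factors Meox1 and Meox2, known from somites and other mesoderm, were both almost without reads in the library labelled HCN3-positive 1. Meox1 (chromosome 11, 101877510 to 101894374, minus strand) had 1 read there and stood at 176 in HCN3-positive 2, against 139, 56.6 and 478 in the libraries labelled negative. Meox2 (chromosome 12, 37108540 to 37179534, plus strand) had 0 reads and 185, against 135, 129.8 and 175. The 4 libraries with Meox2 reads therefore lay close together, whereas Meox1 ranged widely among them. Meox1 overlaps an annotated antisense gene, with the same limit on strand.

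Gdnf (chromosome 15, 7810846 to 7837575, plus strand) had a single read (1) in HCN3-positive 1 and stood at 508 in HCN3-positive 2. It was at 471, 91.0 and 366 in the libraries labelled negative. Its level was thus high in the same 3 libraries irrespective of label. Crym (chromosome 7, 120186380 to 120202111, minus strand), which encodes the thyroid hormone-binding protein mu-crystallin, had 0 reads and 428, against 246, 118 and 387. Spock2 (chromosome 10, 60106219 to 60135198, plus strand), a matrix proteoglycan gene, was at 43.7 and 269 against 114, 122 and 374.

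**Figure D1:**
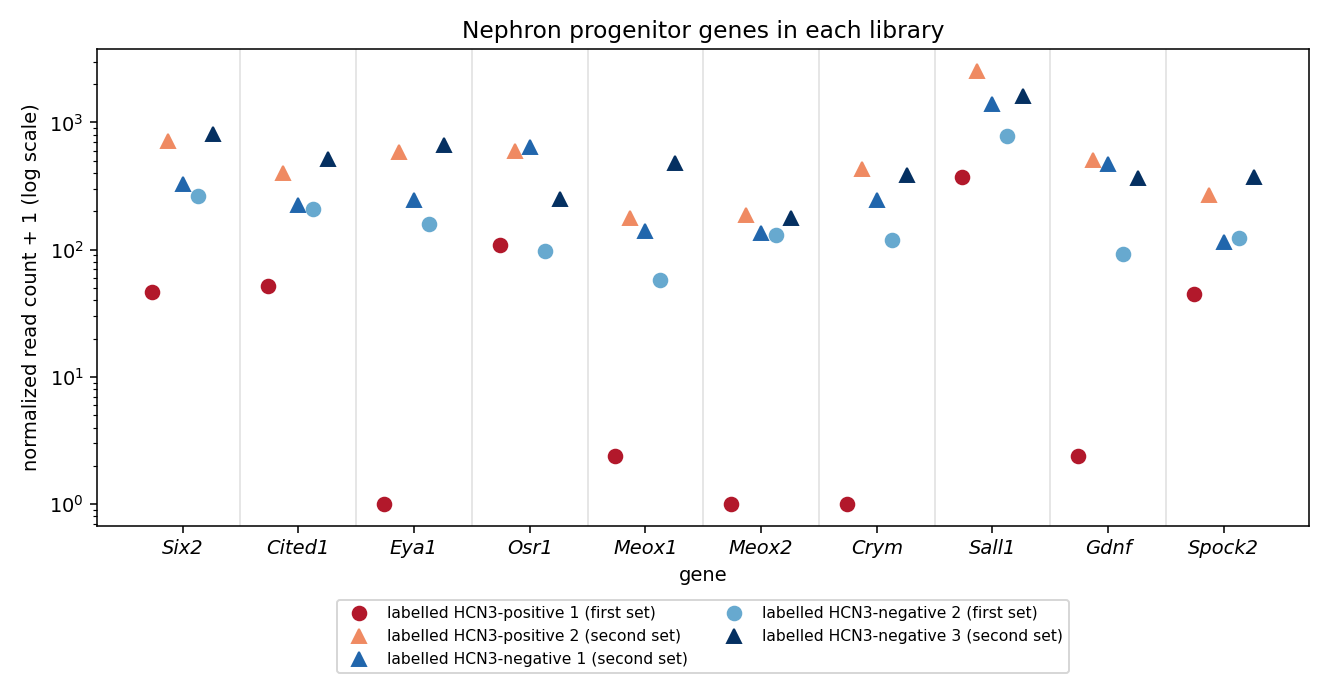
The 10 nephron progenitor genes (horizontal axis) against their normalized read count plus 1 (vertical axis, logarithmic); each point is 1 of the 5 libraries, red shades for those labelled HCN3-positive, blue shades for those labelled HCN3-negative, circles for the first set and triangles for the second set. The library labelled HCN3-positive 1 is lowest in 9 of 10 genes (32.1% of all genes tested), and Eya1, Meox2 and Crym stand at 1 there because they had 0 reads.

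By label, limma passed 0 of the 10 genes at an adjusted threshold of 0.05, as it passed 0% of the 16579 genes tested. Without adjustment, 0 of the 10 and 0.947% of all genes lay under 0.05. edgeR and DESeq2 on the recovered reads also passed 0 of the 10. For 0 of the 10 did both positive labels exceed the 3 negative ones, as they did for 5.34% of all genes tested. The reverse, both below all 3, held for 0 of the 10 and for 5.44% of all genes. The log2 fold change was below 0 in 9 of 10 (52.5% of all genes tested), with a median of -2.02 against -0.03 over all genes tested.

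That median rests on single libraries. Without the library labelled HCN3-positive 1 all 10 genes were above 0, with a median of 0.86, and without HCN3-positive 2 all 10 were below 0, with a median of -4.60. In both cases the lone library was assumed to vary like the other group, and 0 of the 10 passed. With edgeR on the same 5 libraries the median was -0.25 and the log2 fold change of Eya1 was -0.23, against -3.62 in limma.

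**Figure D2:**
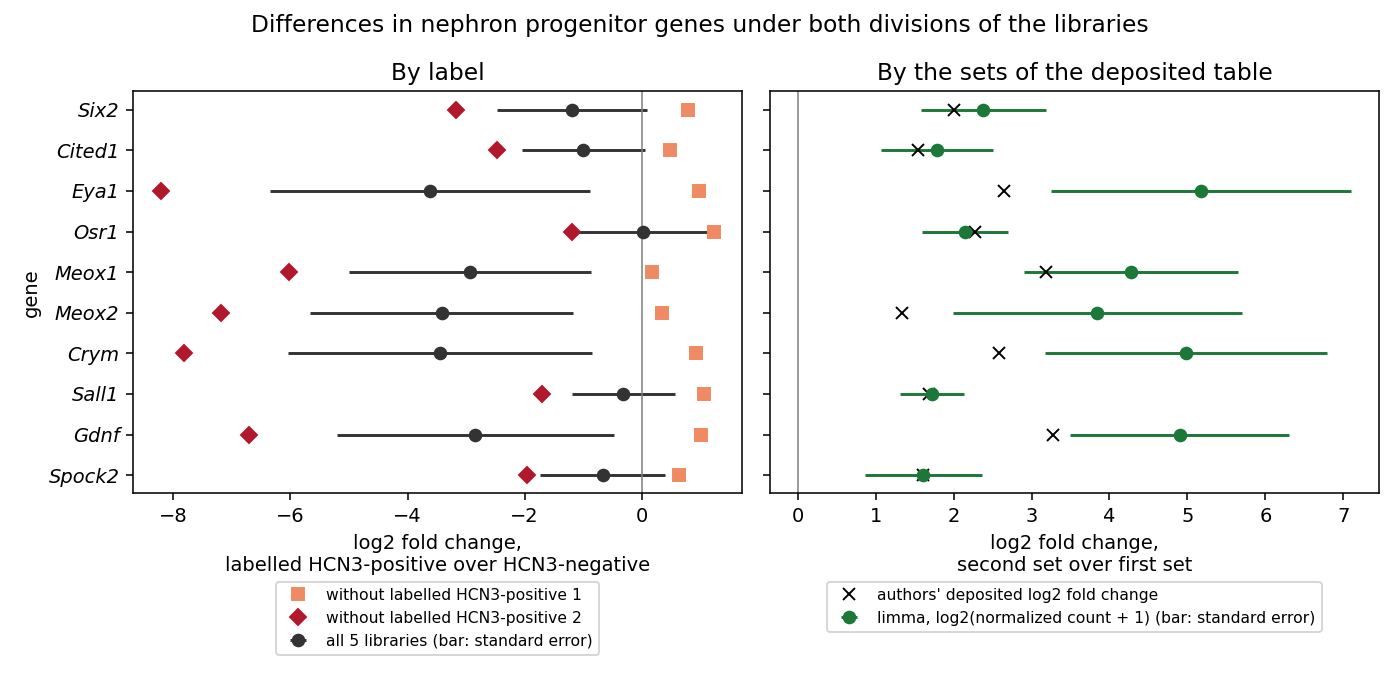
Log2 fold change (horizontal axes) of each of the 10 genes (vertical axis), by label on the left and between the sets of the deposited table on the right; circles with bars are limma estimates with standard errors, squares and diamonds leave out 1 library labelled positive, and crosses are the authors' deposited values. By label the estimates run from -3.62 to 0.02 and turn above 0 without the library labelled HCN3-positive 1, while on the right all 10 lie above 0.

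Between the sets of the deposited table the 10 genes were all higher in the second set. At an adjusted threshold of 0.05, the authors' deposited table passes 5 of the 10 as higher in the second set, against 6.09% of all 18044 genes in that direction and 14.2% in either. They were Gdnf (9.70-fold, adjusted p 9.76e-05), Crym (6.01-fold, 0.00645), Osr1 (4.82-fold, 0.0269), Sall1 (3.20-fold, 0.0280) and Eya1 (6.29-fold, 0.0420), in the authors' deposited table. Six2 (4.01-fold, 0.0943), Cited1 (2.92-fold, 0.193), Meox1 (9.11-fold, 0.199), Spock2 (3.05-fold, 0.338) and Meox2 (2.54-fold, 0.522) did not pass in the authors' deposited table. The authors' deposited fold was above 1 in 10 of 10, as it was for 54.1% of all genes. The comparison uses the same 5 libraries as that by label, so it is no independent evidence.

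How far the sets stood apart differed between the genes. Every library of the second set lay above both libraries of the first set in 9 of 10 genes, against 26.1% of all genes tested. The lowest library of the second set exceeded the highest of the first set 4.02-fold for Gdnf, 2.46-fold for Meox1, 2.30-fold for Osr1 and 2.09-fold for Crym. For Cited1 and Meox2 the same ratio was 1.07 and 1.04. Spock2 was the exception, since the library labelled HCN3-negative 1 of the second set, at 114, lay under HCN3-negative 2 of the first set, at 122.

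Fewer of these calls held in other tests between the same sets. limma on log2(normalized count + 1) passed 2 of the 10, Osr1 with a log2 fold change of 2.14 (SE 0.55, adjusted p 0.0358) and Sall1 with 1.73 (SE 0.41, adjusted p 0.0275). By that test 9.88% of all genes tested passed as higher in the second set. Gdnf missed the threshold, with 4.90 (SE 1.41) and an adjusted p of 0.0510 in limma. edgeR on recovered reads passed Osr1 alone, with an adjusted p of 0.0409, where 7.08% of all genes passed in that direction. The count in limma moved with single libraries, as did the share of all genes passing as higher in the same fit. With either library of the first set left out, the lone library remaining there was assumed to vary like the second set. Passes in those fits therefore have no replicate check in the first set. When HCN3-negative 2 is left out, the lone library is HCN3-positive 1, where 5 of the 10 genes had at most 3 reads. Without HCN3-negative 2, 8 of the 10 passed, against 10.4% of all genes. Without HCN3-positive 2 the count was 0 (4.51% of all genes), and without HCN3-negative 1 it was 0 as well (3.91%). Gdnf alone passed without HCN3-positive 1 (4.38%), and Osr1 alone without HCN3-negative 3 (7.16%).

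The 2 libraries of the first set differed from each other in these genes. Six2 was 5.83-fold, Cited1 4.11-fold, Spock2 2.79-fold and Sall1 2.12-fold higher in the library labelled HCN3-negative 2 than in HCN3-positive 1. Osr1 was nearly even, at a ratio of 0.89. Against the floor of 3 reads, Eya1 was at least 37.5-fold, Meox2 at least 30.7-fold and Crym at least 27.8-fold higher in HCN3-negative 2. Each ratio compares 2 libraries and has no replicate check.

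The genes also stood in other proportions to each other in the library labelled HCN3-positive 1, where relative to Six2 5 of the other 9 lay under their range in the other 4 libraries and 4 lay above it. Eya1 was at 0.603 to 0.824 times the count of Six2 in the other 4 libraries. In HCN3-positive 1, with 32 reads of Six2 and 0 of Eya1, the floor allows a ratio of up to 0.0938. For Crym the ratio was 0.447 to 0.750 in the other 4 libraries, and for Meox2 0.215 to 0.494, with the same limit of 0.0938 in HCN3-positive 1. Meox1 and Gdnf, with 1 read each there, had 0.0313 reads per read of Six2, against 0.215 to 0.587 and 0.346 to 1.44. Sall1 and Osr1 went the other way, at 8.19 and 2.41 times Six2 in HCN3-positive 1, against 1.96 to 4.29 and 0.306 to 1.96 in the other 4. So did Cited1, at 1.12 against 0.567 to 0.793, and Spock2, at 0.969 against 0.348 to 0.464. These ratios do not depend on the size factors and have no replicate check. In HCN3-positive 1 they rest on 32 reads of Six2 and on as few as 0 reads of the other gene.

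Within the second set the genes did not share 1 order. Six2, Cited1, Eya1, Meox1 and Spock2 peaked in HCN3-negative 3 and were lowest of that set in HCN3-negative 1. From HCN3-negative 1 to HCN3-negative 3 they differed 2.49-fold, 2.28-fold, 2.73-fold, 3.44-fold and 3.28-fold. Osr1 and Gdnf were lowest in HCN3-negative 3, at 0.387 and 0.776 times HCN3-negative 1. Sall1, Crym and Meox2 were highest in HCN3-positive 2. Each library of this set is 1 sample, so these orders were not tested.

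**Figure D3:**
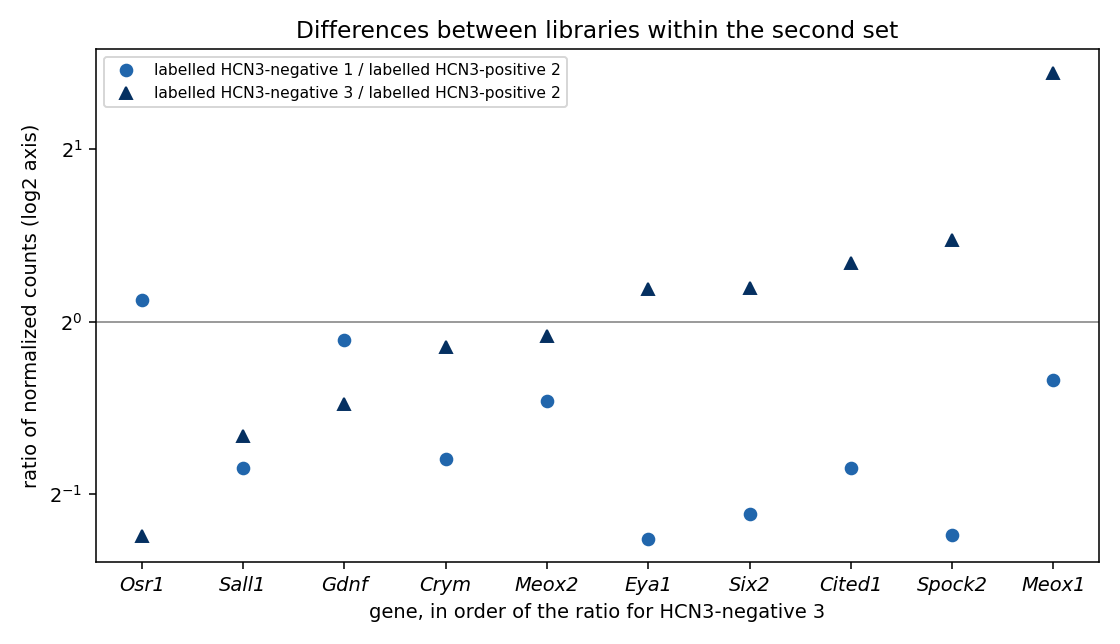
Ratio of the normalized count in the libraries labelled HCN3-negative 1 (circles) and HCN3-negative 3 (triangles) to that in HCN3-positive 2 (vertical axis, log2 scale; 1 means equal) for the 10 genes (horizontal axis). Osr1 is at 1.09 and 0.42 and Meox1 at 0.79 and 2.72, so the libraries of the second set rank the genes differently.

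Levels of different genes were compared per kilobase of annotated exon, as the normalized count per kilobase averaged over the second set. Sall1 (351 ± 114, SD, n = 3) and Six2 (292 ± 121, SD, n = 3) were highest. Osr1 (239 ± 104, SD, n = 3) and Cited1 (216 ± 82.7, SD, n = 3) followed, in this order. Gdnf, Meox1 and Crym lay at 122 ± 20.1, 119 ± 83.5 and 104 ± 28.2 (SD, n = 3 each). Meox2, Eya1 and Spock2 were lowest, at 69.9 ± 11.4, 63.9 ± 28.7 and 45.6 ± 23.6 (SD, n = 3 each). Throughout, the ranges of mean ± SD of neighbours in the order overlapped.

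Other genes of the cap mesenchyme, from a list of 18, were placed beside the 10. In the authors' deposited table all 18 had a fold above 1 (54.1% of all genes). There 5 passed as higher in the second set (6.09% of all genes), namely Fgfr1, Itga8, Hoxa11, Ncam1 and Tmem100. Itga8, the integrin of the condensing mesenchyme, was at 646 and 1604 in the first set (HCN3-positive 1 and HCN3-negative 2) and at 6624, 10743 and 7024 in the second (HCN3-positive 2, HCN3-negative 1 and HCN3-negative 3). Hoxa11, which acts upstream of Gdnf in the metanephric mesenchyme, was at 144 and 210 (first set) and at 945, 918 and 553 (second set). Wt1, a zinc finger factor of both progenitors and podocytes, was at 220 and 262 (first set) and at 1376, 1606 and 6053 (second set). Its adjusted p was 0.0124 by limma and 0.275 in the authors' deposited table.

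By label 0 of 17 of these cap mesenchyme genes tested passed limma, and 1 had an unadjusted p under 0.05 (0.947% of all genes). That gene was Pax2, a paired box factor of both the cap mesenchyme and the ureteric bud. Pax2 had 161 and 270.0 (positive labels) against 57.0, 72.1 and 62.3 (negative labels), so the labelled groups did not overlap. Its log2 fold change was 1.70, and its adjusted limma p was 1.00. Other epithelial lists also leaned one way by label, and their part in the values of Pax2 was not tested. All 10 collecting duct markers were above 0 by label (47.5% of all genes tested), 5 of them without overlap of the groups (5.34%). All 10 proximal tubule markers were below 0 (52.5%), 7 of them without overlap (5.44%). limma passed 0 of either list, as it passed 0% of all genes tested. Without adjustment, 1 collecting duct and 5 proximal tubule markers lay under 0.05, against 0.947% of all genes tested. Of the 10 receptor and ureteric tip genes, 5 were above 0 and 5 below. In 2 of them, Wnt9b and Emx2, both positive labels lay above all negative ones (5.34% of all genes tested). In 0 of them did both lie below. In the deposited division Pax2 was about even, with a fold of 1.11 in the authors' deposited table.

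**Figure D4:**
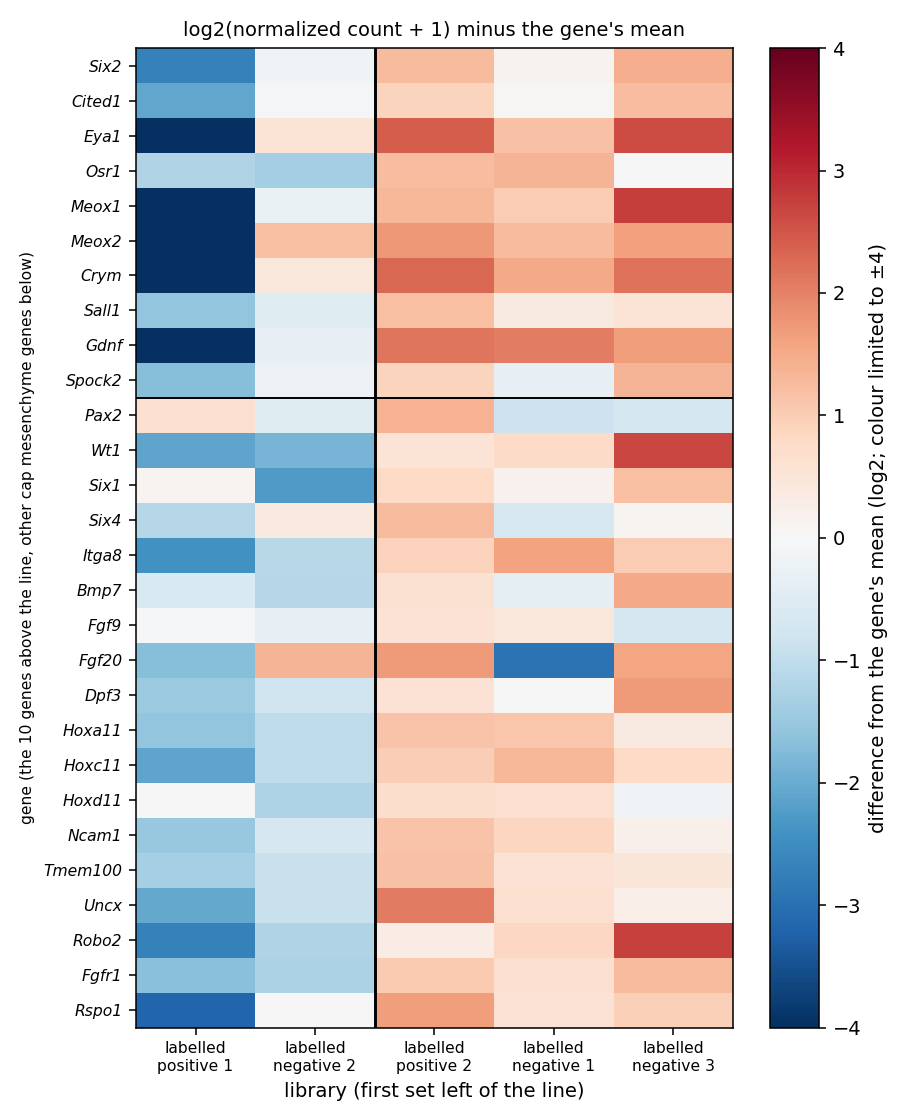
Difference of log2(normalized count + 1) from the mean of each gene over the 5 libraries (colour, red above and blue below) for the 10 nephron progenitor genes and 18 other cap mesenchyme genes (rows) in each library (columns), with the first set left of the vertical line. The 10 genes are mostly blue in the first set and red in the second, and Pax2 is above its mean in both libraries labelled positive.

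GDNF acts on the bud through RET and GFRA1. Ret was at 991 and 1044 in the first set and at 3273, 1568 and 632 in the second. The receptor gene thus had high counts in the library labelled HCN3-positive 1, where Gdnf had 1 read. Gfra1 was at 906 and 3870.0 (first set) and at 7793, 3497 and 4097 (second set). Of the 10 receptor and ureteric tip genes, 1 passed in the authors' deposited table (6.09% of all genes as higher in the second set). It was the RET feedback inhibitor Spry1, at 801 and 1970 (first set) and at 6743, 5129 and 7638 (second set). limma passed 2 of the 10, against 9.88% of all genes tested in that direction. They were Spry1 and the RET target Etv4, which was at 69.1 and 257 against 1383, 728 and 455. By label limma passed 0 of the 10, and 1 had an unadjusted p under 0.05 (0.947% of all genes tested).

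Genes of the first steps of nephron differentiation, the stage that follows the progenitor, were compared as a list of 12. The authors' deposited table passes 0 of 12 (6.09% of all genes as higher), with a fold above 1 in 11 (54.1% of all genes). limma passed Fgf8 alone (adjusted p 0.0472), which is 1 of 12 where 9.88% of all genes tested passed as higher. Fgf8, a survival signal of the forming nephron, had 0 reads in HCN3-positive 1 and was at 13.3 in HCN3-negative 2, against 313, 107 and 46.5 in the second set. Dll1, a Notch ligand, was at 199 and 513 (first set) and at 2235, 649 and 860 (second set), with an adjusted p of 0.101 in limma. By limma the list's median log2 fold change was 0.91, against 3.11 for the 10 progenitor genes, 1.86 for the other cap mesenchyme genes and 0.07 for all genes tested. Renal stroma (3.65), podocyte (3.90) and smooth muscle markers (3.64) had larger medians by limma than the 10 genes. In the authors' deposited table these lists, endothelium (3.06) and erythroid markers (4.50) also had larger medians than the 10 genes. In the authors' deposited table the gap to the other cap mesenchyme genes was small, with medians of 2.14 for the 10, 1.95 for those genes and 1.09 for the early nephron list. By label limma passed 0 of the 12, and 0 had an unadjusted p under 0.05 (0.947% of all genes tested).

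Markers of other cell types moved with the sets, and their part in these results was not tested. The summed normalized count of 9 leukocyte markers reached 341168 and 440762 (first set) but only 963 to 2791 (second set). All 9 passed as lower in the second set in limma (10.6% of all genes tested). The sum of 12 renal stroma markers was 6545 and 7892 (first set) against 57539 to 90653 (second set). In limma 11 of 12 passed as higher (9.88% of all genes tested). The sums of podocyte markers (10 genes) were 18569 and 12910 against 68070 to 482435, highest in HCN3-negative 3. Those of smooth muscle (8 genes) were 5569 and 3374 against 19979 to 127325, and of endothelium (8 genes) 6407 and 7410 against 28393 to 103178. No marker of these lists was at 0 in any library. The library labelled HCN3-positive 1 also had the largest sum of 10 collecting duct markers, 92257 against 12756 to 29690.1 in the other 4. For the 10 progenitor genes the sums were 620 and 2028 against 3951 to 6387. In these bulk samples fewer cells of a type and less RNA per cell cannot be told apart.

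**Figure D5:**
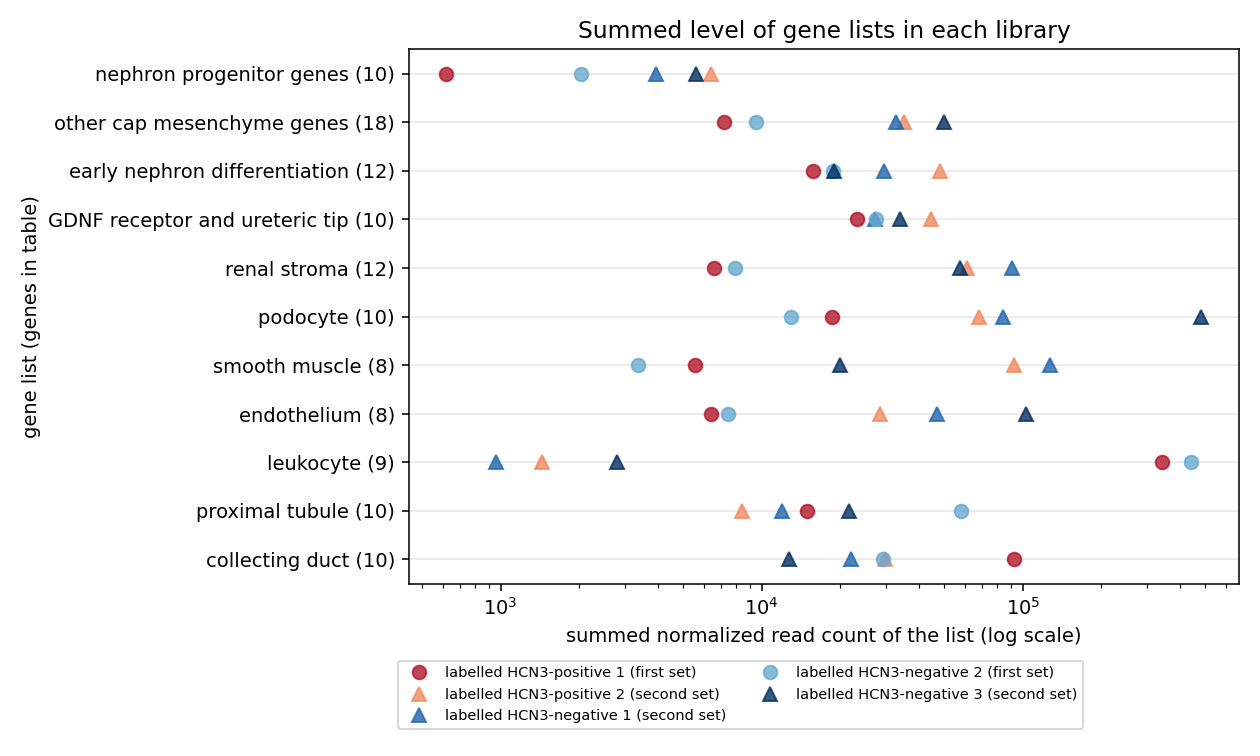
Summed normalized read count (log scale, horizontal axis) of each gene list (vertical axis, number of genes in brackets) in each of the 5 libraries, circles for the first set and triangles for the second. The 10 progenitor genes sum to 620 and 2028 in the first set and to at least 3951 in the second, while the leukocyte list runs the opposite way.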

How the data were processed

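RNA from sorted cells was made into libraries with a Clontech cDNA kit and Nextera XT, per the labels' protocols. The submitters' processing notes name TopHat2 2.0.11, HTSeq 0.6.1p2, DESeq 1.18.0 and mm10. No annotation for counting is named there. Per the file headers, the authors deposited signal values, which are read counts divided by 1 size factor per library, with a fold and log2 fold change as a ratio of group means, and raw and adjusted p-values. The 2 columns of means over unnamed groups were not used. The smallest nonzero value of a library was taken as 1 read, and 100% of its values above 0 were then whole within 0.01. The deposited fold was matched to ratios of library means at a relative tolerance of 0.01. Reads not aligned uniquely (13.5% to 18.7%), in no gene (8.58% to 14.0%) or ambiguous (0.792% to 2.32%) stayed out of library sizes and tests.

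The main test by label was limma 3.58.1 (trend, R 4.3.3) on log2(normalized count + 1) for the 16579 genes whose mean reached 5, adjusted by Benjamini-Hochberg and called at 0.05. On this scale a library at or near 0 reads weighs heavily, so fold changes of such genes can differ widely from ratios of mean counts. All 10 genes passed this filter. edgeR 4.0.16 and DESeq2 1.42.0 were run on recovered reads as alternatives, and the limma and edgeR fits were tested on simulated data. The simulation gave every gene the median spread within groups, so it does not cover genes with a wider spread. Floors are 3 reads and cover counting error only. Positions and exon lengths are from GENCODE M21 (GRCm38).

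The 10 genes and all lists were chosen with earlier results of these data known. From the other lists, genes were named by the smallest limma p, up to 6 per list with a mean of at least 10. Genes near Six2 were those with a mean of at least 50 and the smallest root mean square distance between centred profiles. Besides the 10 genes, predicted, Rik, clone and ribosomal protein names were left out of that search.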

Additional observations from a re-analysis of the deposited data

How the results depend on the processing

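By label, 0 of the 10 genes passed under any of the 8 alternative settings or with any library left out, and limma and edgeR passed 0 of all genes in each, whereas DESeq2 passed 10 of all genes. Sall1 turned to 0.24 with edgeR and 0.20 with DESeq2. The cause was not tested. The other 9 genes kept their direction under these 8 settings. Leaving out each library in turn, the median of the 10 genes ranged from -4.60 to 0.86. Single genes ranged from -3.17 to 0.78 (Six2), -2.48 to 0.48 (Cited1), -8.21 to 0.98 (Eya1), -1.19 to 1.24 (Osr1), -6.03 to 0.17 (Meox1), -7.19 to 0.35 (Meox2), -7.81 to 0.93 (Crym), -1.71 to 1.07 (Sall1), -6.71 to 1.02 (Gdnf) and -1.96 to 0.63 (Spock2). The highest value of each came without the library labelled HCN3-positive 1 and the lowest without HCN3-positive 2. Between the sets, the authors' deposited table passed 2560 genes, limma 3396, and limma with each library left out from 1508 to 2901. All 10 genes stayed above 0 in each of these fits. Both ends of the range with libraries left out came from fits with a lone library in the first set, assumed to vary like the second set. Whether the replicate numbers pair the samples could not be told. Deviations of same-numbered libraries from their group means correlated at -0.53 and -0.69 across genes. With 2 libraries labelled positive, these values are not independent of each other. Same-numbered libraries of the 2 labels also lie in different sets, so the difference between the sets enters both correlations. With the replicate block, 0 genes passed and the median of the 10 was -1.41. HCN3-negative 3 has no same-numbered library labelled positive, so it adds nothing to the fold changes of that fit. Depth limits the values near the floor in the library labelled HCN3-positive 1, where 5 of the 10 genes had at most 3 reads.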

Other observations

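The search for profiles over the 5 libraries near that of Six2 covered 12930 genes besides the 10 described. The nearest were Ngfr, Fgfr4, Slc29a4, Fv1, Skida1 and Zfp108. Likeness is the root mean square distance between log2(normalized count + 1) profiles, each centred on its own mean, over 5 libraries. Ngfr, the low-affinity neurotrophin receptor, was nearest at 0.15, with 5.64 and 92.0 normalized counts for the positive labels (1 and 2) and 55.2, 32.2 and 114 for the negative labels (1, 2 and 3). Fgfr4, a fibroblast growth factor receptor, was next at 0.25, with 67.7 and 989.6 against 633, 577 and 1582. The nucleoside and monoamine transporter gene Slc29a4 was at 12.7 and 206 against 94.4, 51.1 and 265. Among the 10 genes described, Cited1 was nearest to Six2 at 0.34, then Spock2 at 0.52 and Sall1 at 0.67, and Eya1 was farthest at 2.05. The distance of Eya1 includes its 0 reads in HCN3-positive 1. In the other 4 libraries Eya1 kept within 0.603 to 0.824 times Six2, and Cited1 within 0.567 to 0.793.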
